A study of Mus musculus with 6 samples.

Results

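The genes described here are 8 markers of the fetal gene programme and of cardiac stress, *Nppa*, *Nppb*, *Npr3*, *Myh6*, *Myh7*, *Acta1*, *Ankrd1* and *Rcan1*. They were taken by symbol from the 17556 genes of the expression table, and all 8 were among the 13817 genes that passed the filter on low counts. Bulk RNAseq was performed on left ventricles of mice aged 6 to 10 weeks, 4 days post injury (dpi). All mice underwent permanent ligation of the left anterior descending artery, received a tamoxifen citrate diet from the time of surgery, and carried floxed alleles of *Yap* on both copies and of *Wwtr1* on one. The 3 Cre positive mice also carried a copy of MerCreMer at the endogenous *Periostin* locus, while the 3 Cre negative siblings had wildtype *Periostin*. This Cre is active in myofibroblasts. Most of the 8 genes are expressed mainly by cardiomyocytes. The comparison addresses whether these genes differed between ventricles with and without a Cre that targets *Yap* and *Wwtr1* in another cell type. No group carried the Cre without the floxed alleles. The Cre, the altered *Periostin* copy and the targeting of the floxed genes thus cannot be told apart here. No uninjured ventricle was analysed here, so the values describe infarcted hearts of both genotypes and not a response to infarction.

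The fetal gene programme is a group of genes that the ventricle uses before birth, turns down in adult life and takes up again under load or injury. Wall stretch and neurohormonal stimulation raise the natriuretic peptides *Nppa* and *Nppb*, the beta myosin heavy chain *Myh7* and the skeletal alpha-actin *Acta1*, while the adult alpha myosin heavy chain *Myh6* tends to decline. *Ankrd1*, a stretch responsive protein of the titin complex, and *Rcan1*, a feedback inhibitor of the phosphatase calcineurin, are read as markers of mechanical and calcium signalling, and *Npr3* clears natriuretic peptides from the circulation.

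Promoter sequences of the 8 genes were read from RefSeq (GRCm38.p6) as the 250 bases before each listed start. They were searched on both strands for the M-CAT core CATTCC, which is bound by TEAD factors, the DNA-binding partners of Yap and Wwtr1. The core was present in the windows of 5 of the 8 genes and upstream of 5 of their 10 listed starts, compared with 12.6% of all 32851 starts. It lay before the whole gene interval of *Myh7*, *Acta1* and *Ankrd1*. For *Nppb* and *Myh6* the listed start is 114 and 1410 bases inside the interval RefSeq gives for the gene, and the core, though before that start, lies inside the interval. No core was found in the windows of *Nppa*, *Npr3* or *Rcan1*. A match is a description of letters and shows no binding. The windows of 30 bases are written 5′ to 3′ on the strand of the gene, with the core in capitals in either orientation.
Nppb, chr4:147985783-147985812, plus strand: gctcagccggcaGGAATGcagctgataaat
Myh6, chr14:54966796-54966825, minus strand: ctttggggaggaGGAATGtgcccaaggact
Myh7, chr14:54994810-54994839, minus strand: ctagtgagccgtGGAATGttagagatattt
Acta1, chr8:123894804-123894833, minus strand: gaagggcagcaaCATTCCttcggggcggtg
Ankrd1, chr19:36120037-36120066, minus strand: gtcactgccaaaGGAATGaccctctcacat
Ankrd1, chr19:36119950-36119979, minus strand: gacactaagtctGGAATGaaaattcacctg

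Libraries held between 13177888 and 14827579 estimated counts. Ventricle 1 of the Cre negative group stood apart from the other libraries. The chi-square per gene of its counts against each of theirs was 44.2 to 68.3, compared with 8.07 to 17.0 between any 2 of the other 5, where sampling alone gives a value near 1, so no library was a copy of another. The mean log2 CPM (counts per 1000000 counts) of 12 cardiomyocyte markers was 11.86 in that ventricle, 11.33 to 11.45 in the other Cre negative ventricles and 11.14 to 11.31 in the Cre positive ones. These group values did not overlap (difference −0.32, exact two-sided permutation p = 0.1, the smallest that 3 ventricles against 3 can give), and the difference was −0.16 without Cre negative ventricle 1. All 12 of these markers had a log2 fold change below 0, as had 48.8% of all genes tested, and 10 of the 12 were below 0 without Cre negative ventricle 1. In edgeR 0 of them passed the adjusted threshold and 3 had an unadjusted p under 0.05, compared with 5.83% of all genes. In bulk RNA, fewer cardiomyocytes and less RNA per cardiomyocyte cannot be told apart. Ventricle 1 of the Cre positive group held skeletal muscle markers at a summed 209 TPM (transcripts per 1000000 transcripts), compared with 16.8 to 24.6 TPM in the other 5 ventricles, and *Myh1*, *Myh2* and *Myh4*, which define fast skeletal fibres, were at 16.1, 4.39 and 0.75 TPM there and at or under 0.11 TPM elsewhere. The floxed genes were not lower in the Cre positive ventricles. *Yap1* was at 48.9 to 50.7 TPM in these and 44.2 to 46.3 TPM in the Cre negative ventricles, and *Wwtr1* at 43.9 to 47.4 and 39.3 to 43.6 TPM. By edgeR their log2 fold changes were 0.03 (adjusted p = 0.935) and 0.05 (adjusted p = 0.876). The part of myofibroblasts in these levels of whole ventricles was not tested. *Postn*, whose locus carries the Cre, was at 526 to 636 TPM with it and at 452, 1015 and 1112 TPM in Cre negative ventricles 1 to 3 (log2 fold change −0.66, adjusted p = 0.714 by edgeR, and −0.94, adjusted p = 0.0182 by edgeR, without Cre negative ventricle 1, a fit that called 2 of 13995 genes, or 0.0143%).

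None of the 8 genes passed the threshold (adjusted p under 0.05) of edgeR's quasi-likelihood test with Benjamini-Hochberg adjustment over all genes tested, and 0 passed in DESeq2 or in limma on log2 TPM. Across all genes the same edgeR test called 1 of 13817 (0.00724%). At an unadjusted p under 0.05, 1 of the 8 was past the threshold, *Rcan1*, compared with 5.83% of all genes. *Rcan1* was also the 1 member of 8 whose TPM values did not overlap between genotypes, where 17.4% of all genes did not overlap. On that scale 2068 such genes were higher in the Cre positive ventricles and 337 lower. The median log2 fold change over the genes tested was 0.11 by limma on log2(TPM + 1) and 0.125 on log2(TPM + 0.1). TMM (edgeR's trimmed mean of M values) scales the counts so that most genes are near no change, and the median log2 fold change on that scale was 0.006, a value that the scaling itself sets. By TMM-scaled CPM, 14.4% of genes did not overlap, 1043 higher and 946 lower, and *Rcan1* was again the 1 member among them. Fold changes given for the 8 genes are those of the TMM-scaled edgeR fit, while TPM, which is per transcript length, is used to set levels of different genes side by side.

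**Figure D1:**
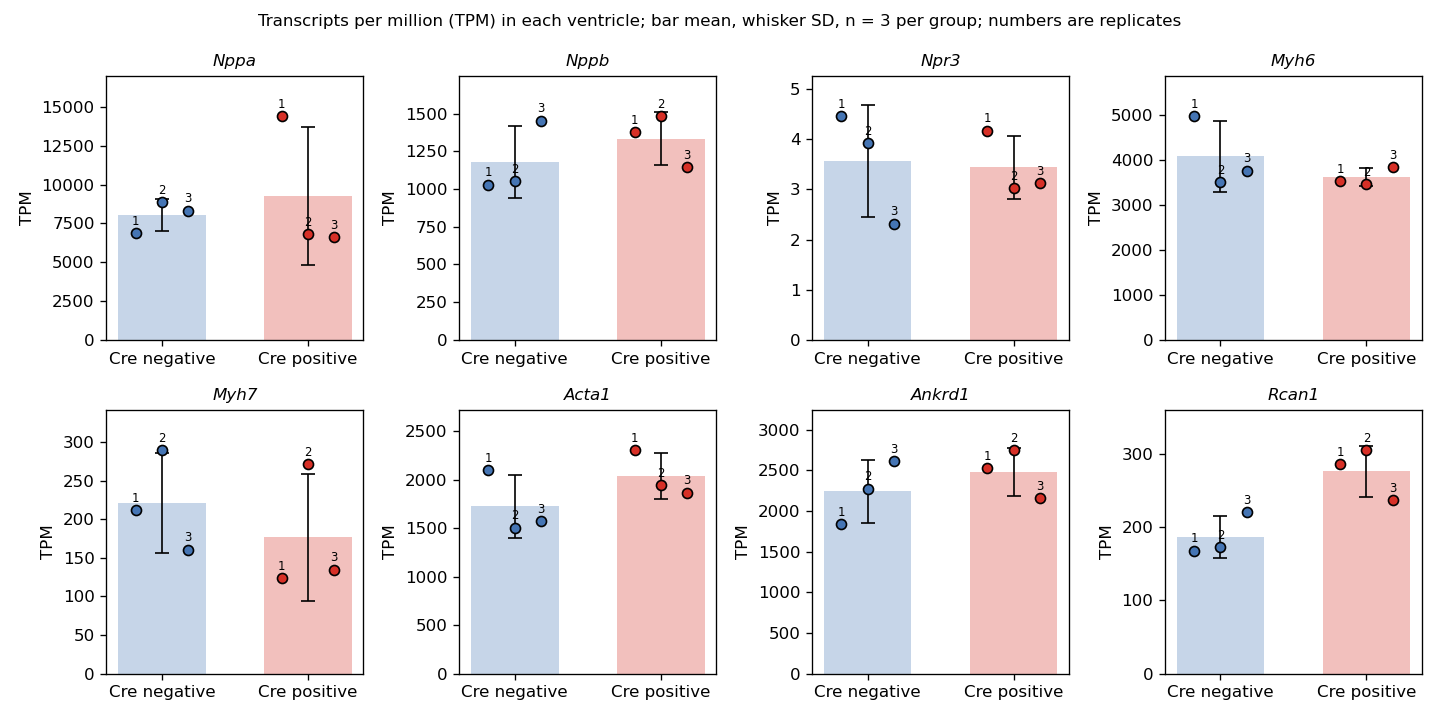
TPM of each of the 8 genes in the 3 Cre negative (blue) and 3 Cre positive (red) ventricles, with replicate numbers, group means as bars and SD as whiskers. *Rcan1* ranged from 168 to 220.4 TPM in the Cre negative and from 237 to 306 TPM in the Cre positive ventricles, while the groups overlapped for the other 7 genes.

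By mean TPM over the 6 ventricles, *Nppa* ranked 7 among all genes of the table, *Myh6* 22, *Ankrd1* 43, *Acta1* 64, *Nppb* 123, *Rcan1* 658, *Myh7* 760 and *Npr3* 11269. In TPM, the lowest *Nppa* value lay above the highest *Myh6* value, *Myh6* above *Ankrd1*, *Acta1* above *Nppb*, and *Nppb* above *Rcan1*. The ranges of *Ankrd1* and *Acta1* overlapped, as did those of *Rcan1* and *Myh7*, so these neighbours in the order were not separated.

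*Nppa* (gene number 230899, chr4:148000722-148002074, plus strand) encodes atrial natriuretic peptide, which cardiomyocytes release under stretch. Its level was 6895, 8877 and 8321 TPM in Cre negative ventricles 1 to 3 and 14404, 6826 and 6634 TPM in Cre positive ventricles 1 to 3, from 39264 to 87604 estimated counts. A single Cre positive ventricle stood above the others, and the remaining 2 lay just below the Cre negative range. The mean was 9288 ± 4431 TPM (SD, n = 3) with Cre and 8031 ± 1022 TPM (SD, n = 3) without it. In edgeR this gave a log2 fold change of 0.11 (standard error 0.32, 95% interval −0.64 to 0.86, adjusted p = 0.930 by edgeR's quasi-likelihood test). Without Cre positive ventricle 1 it was −0.40 (adjusted p = 0.759 by the same edgeR test), so the sign rested on that library.

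Cre positive ventricle 1 was also the one with the most RNA of atrial markers. The 4 markers *Myl4*, *Myl7*, *Sln* and *Bmp10* summed to 2196 TPM there, to 55.0 and 451 TPM in Cre positive ventricles 2 and 3, and to 1310.2, 956 and 171 TPM in Cre negative ventricles 1 to 3. The group ranges overlapped, at 171 to 1310.2 TPM without Cre and 55.0 to 2196 TPM with it. *Bmp10*, which is restricted to atria, was at 3.12 TPM in Cre negative ventricle 1 and listed at 0 in the other 5 ventricles, including the one with the highest *Nppa*. Cre negative ventricle 1 had the next highest atrial sum and the lowest *Nppa* of its group. The part of atrial RNA in the level of *Nppa* was not tested.

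**Figure D2:**
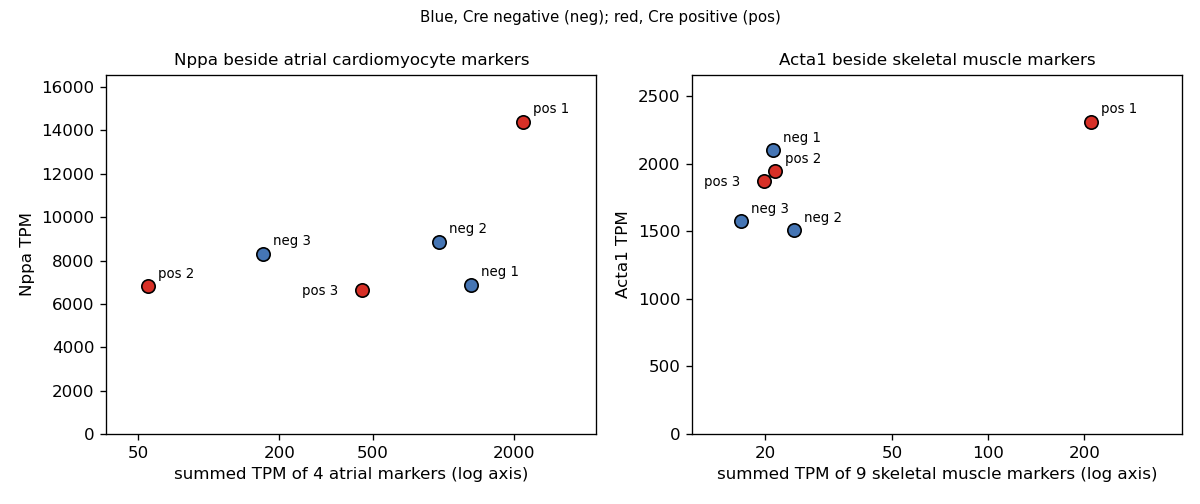
*Nppa* TPM against the summed TPM of 4 atrial markers (left) and *Acta1* TPM against the summed TPM of 9 skeletal muscle markers (right), 1 point per ventricle, with log horizontal axes. Cre positive ventricle 1 is highest on both axes of both panels, at 14404 TPM of *Nppa* and 2309.8 TPM of *Acta1*.

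*Nppb* (gene number 18158, chr4:147985786-147987205, plus strand) encodes B-type natriuretic peptide and ends 13516 bp before *Nppa*. Its level was 1029, 1052 and 1452 TPM in the Cre negative ventricles and 1377, 1482 and 1144 TPM in the Cre positive ones, in the order of their replicate numbers. The highest Cre negative value lay within the Cre positive range, and the groups overlapped. Between the groups the log2 fold change was 0.06 (standard error 0.16, 95% interval −0.31 to 0.42, adjusted p = 0.926 by edgeR). *Nppb* stood at 14.9, 11.9 and 17.4 percent of *Nppa* by TPM in the Cre negative ventricles and at 9.56, 21.7 and 17.2 percent in the Cre positive ones. This share was lowest in the ventricle with the highest *Nppa*, where *Nppb* itself was within the range of the other libraries.

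*Npr3* (gene number 18162, chr15:11839896-11907837, minus strand), the natriuretic peptide clearance receptor, was the member with the lowest level. It was at 4.46, 3.93 and 2.32 TPM in the Cre negative ventricles and at 4.17, 3.02 and 3.13 TPM in the Cre positive ones, on 128 to 226 estimated counts per library. Cre negative ventricle 3 was the lowest and ventricle 1 of each group the highest. Its log2 fold change was −0.16 (standard error 0.28, 95% interval −0.82 to 0.50, adjusted p = 0.874 by edgeR), and 0.08 without Cre negative ventricle 1. *Npr3* is a gene of endocardium, and 5 endocardial markers summed to 35.0 to 39.2 TPM without Cre and to 35.2 to 40.9 TPM with it, with *Hapln1* at or under 0.24 TPM in each library. *Nfatc1* made up 17.7 to 25.9 TPM of that sum. Of the others, *Cytl1* was at 8.67 to 10.02 TPM without Cre and 4.29 to 7.94 TPM with it (log2 fold change −0.77, adjusted p = 0.714 by edgeR), and *Adgrg6* at 1.06 to 1.08 and 1.33 to 1.56 TPM (log2 fold change 0.35, adjusted p = 0.714 by edgeR), so that they lay apart in opposite directions.

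Among 11 other genes of the natriuretic peptide pathway, 5 had a log2 fold change above 0 and 6 below, with a median of −0.0009. None passed the adjusted threshold in edgeR, DESeq2 or limma, and 0 had an unadjusted p under 0.05 in edgeR, compared with 5.83% of all genes. The largest log2 fold change was that of *Prkg2*, a cGMP dependent kinase, at 0.57 (adjusted p = 0.714 by edgeR), and the smallest that of *Corin*, the protease that activates pro-atrial natriuretic peptide, at −0.40 (adjusted p = 0.714 by edgeR). *Corin* was at 110.2, 73.8 and 74.6 TPM without Cre and at 72.4, 70.3 and 71.2 TPM with it. The Cre negative value farthest from the rest was in ventricle 1, without which the log2 fold change of *Corin* was −0.13.

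*Myh6* (gene number 17888, chr14:54941921-54968017, minus strand) encodes the alpha myosin heavy chain, the main motor of the adult mouse ventricle. It was at 4982, 3512 and 3769 TPM in the Cre negative ventricles and at 3543, 3470.3 and 3845 TPM in the Cre positive ones. Cre negative ventricle 1 was above all others, and the remaining values were intermixed. For *Myh6* the log2 fold change was −0.30 (standard error 0.21, 95% interval −0.80 to 0.19, adjusted p = 0.721 by edgeR), and −0.07 without Cre negative ventricle 1. The size of the difference thus rested on that library.

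*Myh7* (gene number 140781, chr14:54970684-54994626, minus strand) encodes the beta myosin heavy chain and lies 2666 bp from *Myh6*. It was at 212, 290.05 and 161 TPM in the Cre negative ventricles and at 124, 272 and 135 TPM in the Cre positive ones. Ventricle 2 was the highest of each group, and the groups overlapped. This amounted to a log2 fold change of −0.45 (standard error 0.32, 95% interval −1.19 to 0.29, adjusted p = 0.721 by edgeR). It was −0.86 without Cre positive ventricle 2 and −0.24 without Cre negative ventricle 2, below 0 in each case. The estimated counts of *Myh6* and *Myh7* held fractions, as estimates do that split reads between closely related genes or transcripts, and the share of reads split between these 2 genes was not tested.

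The ratio of *Myh7* to *Myh6*, which sets the fetal against the adult motor within a ventricle and does not depend on library scaling, was 4.25, 8.26 and 4.26 percent by TPM in the Cre negative ventricles. In the Cre positive ventricles it was 3.50, 7.83 and 3.51 percent. The adult form thus exceeded the fetal form by 12.1 to 28.6 times in each library. The 2 ventricles numbered 2 were far above the others, and in each group the other 2 ventricles were nearly equal. On the log2 scale the ratio was −4.45 ± 0.67 (SD, n = 3) with Cre and −4.23 ± 0.55 (SD, n = 3) without it. The difference of −0.21 (standard error 0.50) was smaller than the spread between ventricles (exact two-sided permutation p = 0.5, smallest possible 0.1). It ranged from −0.60 without Cre positive ventricle 2 to 0.10 without Cre negative ventricle 2, so its direction turned when the latter alone was left out. Each of these values keeps the high ratio of the other group.

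**Figure D3:**
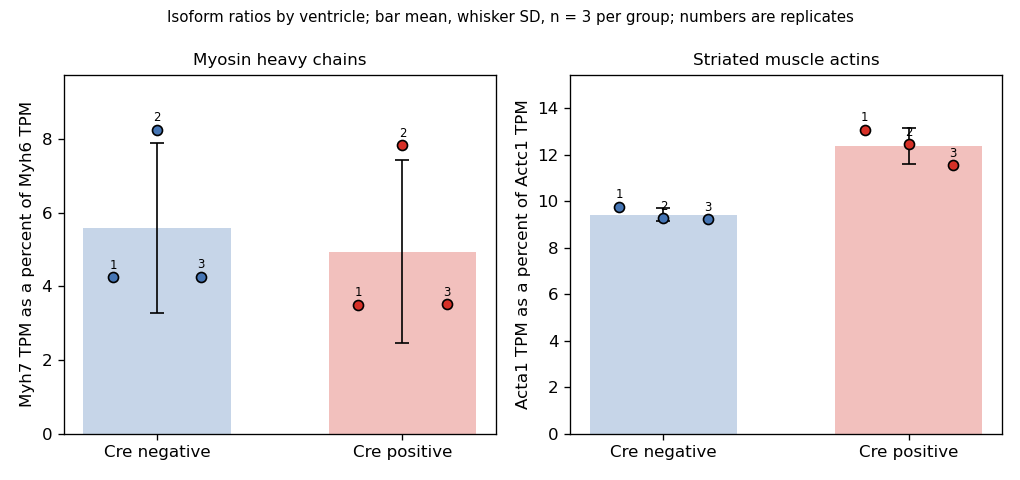
*Myh7* TPM as a percent of *Myh6* TPM (left) and *Acta1* TPM as a percent of *Actc1* TPM (right) in each ventricle, with replicate numbers, group means as bars and SD as whiskers. The myosin ratio overlapped between groups, at 4.25 to 8.26 percent without Cre and 3.50 to 7.83 percent with it, while the actin ratio was 9.23 to 9.76 percent without Cre and 11.6 to 13.1 percent with it.

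*Acta1* (gene number 11459, chr8:123891758-123894775, minus strand) encodes skeletal alpha-actin, which the fetal and the stressed ventricle express beside the cardiac form *Actc1*. It was at 2099.5, 1506 and 1575 TPM in the Cre negative ventricles and at 2309.8, 1946 and 1868 TPM in the Cre positive ones. Cre negative ventricle 1 lay within the Cre positive range, and the other 2 Cre negative ventricles lay below it. edgeR put the log2 fold change of *Acta1* at 0.11 (standard error 0.20, 95% interval −0.36 to 0.58, adjusted p = 0.875 by edgeR), 0.34 without Cre negative ventricle 1 and −0.02 without Cre positive ventricle 1. A CArG box, the element bound by serum response factor, lay 73 to 64 bases before the start of *Acta1*, in the RefSeq window chr8:123894829-123894858 of the minus strand, with the box in capitals.
Acta1: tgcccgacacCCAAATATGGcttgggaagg
Of the 10 listed starts of the 8 genes, this was the 1 with such a box within 250 bases, and 1.47% of all starts had one.

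Set against cardiac actin, *Acta1* stood at 9.76, 9.27 and 9.23 percent of *Actc1* by TPM in the Cre negative ventricles and at 13.1, 12.4 and 11.6 percent in the Cre positive ones. Each Cre positive ventricle was above each Cre negative one. Of the 13816 tested genes other than *Actc1*, 12.5% were higher without overlap when set against *Actc1* in the same way, and *Actc1*, which is itself 1 of the 12 cardiomyocyte markers, had a log2 fold change of −0.28 (adjusted p = 0.722 by edgeR) with overlapping groups. The means were 12.4 ± 0.76 percent (SD, n = 3) with Cre and 9.42 ± 0.30 percent (SD, n = 3) without it, a log2 difference of 0.39 (exact two-sided permutation p = 0.1, the smallest possible). This ratio was computed after the values had been seen, as 1 of 4 isoform ratios. *Nppb* to *Nppa* (exact p = 0.9), the slow skeletal to the cardiac troponin I, *Tnni1* to *Tnni3* (exact p = 0.8), and the atrial to the ventricular light chain, *Myl7* to *Myl2* (exact p = 0.7), overlapped between the groups. The 9 skeletal muscle markers summed to 209 TPM in Cre positive ventricle 1, 21.5 and 19.9 TPM in Cre positive ventricles 2 and 3, and 21.2, 24.6 and 16.8 TPM in the Cre negative ventricles. The part of skeletal muscle RNA in the ratio was not tested. The estimated counts of *Acta1* were whole numbers in each library.

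Of 17 other sarcomere isoforms, 16 were tested, and 5 had a log2 fold change above 0 and 11 below, with a median of −0.23. None passed the adjusted threshold in edgeR, DESeq2 or limma, and 2 had an unadjusted p under 0.05 in edgeR, compared with 5.83% of all genes. Both, *Myl2* and *Myl3*, are also among the 12 cardiomyocyte markers. The extremes were *Tpm2*, a tropomyosin that smooth and skeletal muscle also use, at 0.39 (adjusted p = 0.714 by edgeR), and cardiac troponin T *Tnnt2* at −0.44 (adjusted p = 0.714 by edgeR). *Tnnt2* was at 10054, 7802 and 7168 TPM without Cre and at 6656, 6526 and 6995 TPM with it, without overlap, and its log2 fold change was −0.22 without Cre negative ventricle 1. The median of the list was then −0.09. Of 15 adult metabolic and calcium handling genes, 15 had a log2 fold change below 0, compared with 48.8% of all genes, with a median of −0.34, from *Ppargc1b* at −0.13 to *Pdk4* at −0.57. None of these passed in edgeR, DESeq2 or limma, and 3 had an unadjusted p under 0.05 in edgeR, compared with 5.83% of all genes. Cre negative ventricle 1 stood high in this list, with a summed 14567 TPM against 10455 to 10659 TPM in the other Cre negative and 9467 to 10819 TPM in the Cre positive ventricles. Without it, 13 of the 15 were below 0, with a median of −0.15, and *Ryr2*, the calcium release channel, was at 0.07. The 12 cardiomyocyte markers had a median of −0.30 with that ventricle and −0.13 without it, but 3 of them are also in the metabolic list and 7 in the sarcomere list, so these medians are not independent.

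*Ankrd1* (gene number 107765, chr19:36111965-36119844, minus strand) was at 1841, 2274 and 2613 TPM in the Cre negative ventricles and at 2524, 2751 and 2157 TPM in the Cre positive ones. The lowest value was in Cre negative ventricle 1, and the groups overlapped. The log2 fold change was 0.03 (standard error 0.15, 95% interval −0.31 to 0.38, adjusted p = 0.956 by edgeR). Its interval was narrower than those of *Nppa*, *Npr3*, *Myh6*, *Myh7* and *Acta1*. Of 16 other stretch and Z-disc genes, 7 had a log2 fold change above 0 and 9 below, with a median of −0.05, where 48.8% of all genes were below 0. None passed in edgeR, DESeq2 or limma, and 1 had an unadjusted p under 0.05 in edgeR, compared with 5.83% of all genes. The extremes were *Ankrd2*, a related stretch responsive protein that is more abundant in skeletal muscle, at 0.67, and *Fhl2*, a LIM domain protein of the Z-disc, at −0.48. *Ankrd2* was at 5.98 TPM in Cre positive ventricle 1, the library with the skeletal muscle markers, and at 1.95 to 2.24 TPM in the other 5.

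*Rcan1* (gene number 54720, chr16:92391951-92466169, minus strand) was the member whose groups were apart. It was at 168, 173 and 220.4 TPM in the Cre negative ventricles and at 286, 306 and 237 TPM in the Cre positive ones. Each value with Cre was above each value without. The same held by TMM-scaled CPM, at 224, 206 and 261 CPM without Cre and 336, 333 and 267 CPM with it, where the gap between Cre negative ventricle 3 and Cre positive ventricle 3 was small. The estimated counts behind these values were 2715, 2994 and 3832 without Cre and 4821, 5150 and 3901 with it. edgeR gave a log2 fold change of 0.44 (standard error 0.13, 95% interval 0.13 to 0.75), a 1.36-fold higher level. The interval of this gene alone excluded 0, but the gene ranked 114 by p among the 13817 genes tested and did not pass the adjusted threshold (adjusted p = 0.714 by edgeR). With any 1 ventricle left out, the log2 fold change lay between 0.37 and 0.54.

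**Figure D4:**
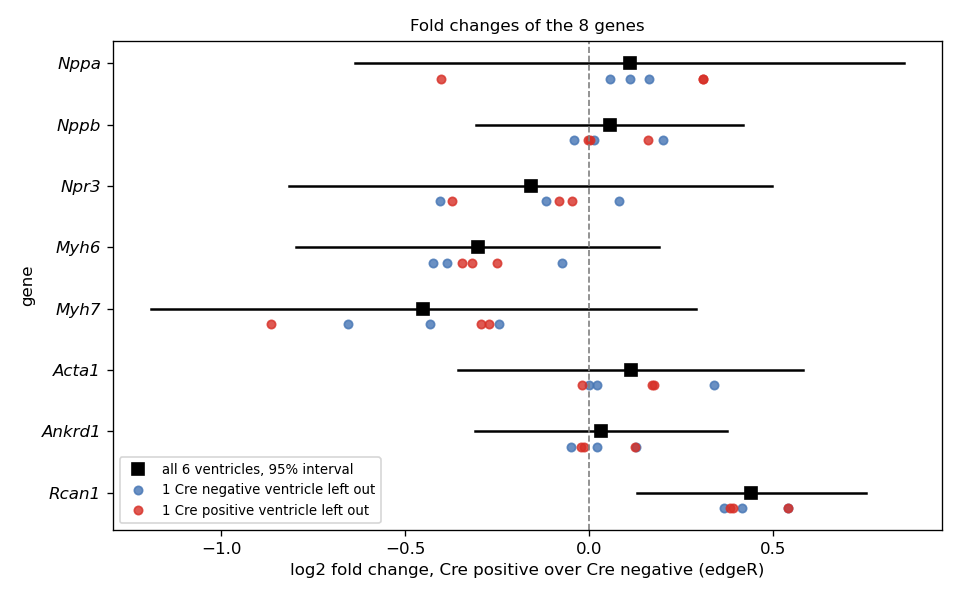
log2 fold change of Cre positive over Cre negative ventricles for each of the 8 genes (squares, with 95% intervals from edgeR), with the values after leaving out each ventricle in turn as circles (blue, a Cre negative ventricle left out; red, a Cre positive one). *Rcan1* lay between 0.37 and 0.54 in the latter and *Nppa* between −0.40 and 0.31.

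RefSeq lists 2 starts for *Rcan1*. The internal one, from which the calcineurin inducible isoform is made, is preceded by a cluster of sites for NFAT, the transcription factor that calcineurin activates. The deposited values are per gene and do not separate the isoforms. The 250 bases before the internal start (chr16:92400079-92400328, minus strand, GRCm38.p6) are shown because they hold 3 copies of the NFAT core GGAAA on either strand, in capitals, while the window before the other start holds 0. A core so short was present in 55.6% of all windows of this length and in 3 of the 10 windows of the 8 genes, of which the other 2 belong to *Myh7* and overlap, sharing 2 cores.
Rcan1, internal start: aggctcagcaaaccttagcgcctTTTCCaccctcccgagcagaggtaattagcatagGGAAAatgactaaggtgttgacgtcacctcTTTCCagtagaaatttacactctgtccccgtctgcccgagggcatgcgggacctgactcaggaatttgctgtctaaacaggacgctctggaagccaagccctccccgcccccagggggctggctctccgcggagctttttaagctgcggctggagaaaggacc

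Of 18 other genes of calcineurin, NFAT and MEF2 signalling, 7 had a log2 fold change above 0 and 11 below, with a median of −0.03. None passed the adjusted threshold in edgeR, DESeq2 or limma, and 2 had an unadjusted p under 0.05 in edgeR, compared with 5.83% of all genes. The extremes were the transcription factor *Nfatc4* at 0.26 and the calcineurin catalytic subunit *Ppp3cc* at −0.25 (adjusted p = 0.714 for both by edgeR). *Nfatc4* was at 9.16, 11.3 and 12.7 TPM without Cre and at 13.5, 14.1 and 14.96 TPM with it. The other regulators of calcineurin, *Rcan2* and *Rcan3*, had log2 fold changes of −0.22 (adjusted p = 0.749 by edgeR) and −0.05 (adjusted p = 0.895 by edgeR). Of 10 general stress genes, 7 were above 0 and 3 below, with a median of 0.12. None passed in edgeR, DESeq2 or limma, and 1 had an unadjusted p under 0.05 in edgeR, compared with the same 5.83% of all genes. The extremes were the stress cytokine *Gdf15* at 0.82 and the metallothionein *Mt1* at −0.64 (adjusted p = 0.714 for both by edgeR). *Gdf15* was at 8.82, 32.0 and 28.4 TPM without Cre and at 38.3, 53.6 and 39.5 TPM with it, without overlap, and its log2 fold change was 0.46 without Cre negative ventricle 1. Leaving out that ventricle moved the medians of the natriuretic, calcineurin, stretch and general stress lists to 0.01, 0.01, 0.09 and 0.02, so that those of the natriuretic, calcineurin and stretch lists turned from below to above 0. The genes with an unadjusted p under 0.05 in edgeR then numbered 0 of 18 in the calcineurin list, 1 of 15 in the metabolic list, 3 of 16 in the sarcomere list, 2 of 16 in the stretch list and 2 of 10 in the general stress list, compared with 6.59% of all genes in that fit. These list values without a ventricle were computed after the data had been seen.

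Because the mean of the 12 cardiomyocyte markers did not overlap between the groups, although none of the 12 passed the test, each of the 8 genes was also set against the mean log2 CPM of the 12 markers in the same ventricle. On this scale 7 of the 8 had a difference above 0 and *Myh7* one below 0, at −0.17. Of all genes tested, 92.7% were above 0, with a median of 0.33, since subtracting the lower marker mean moves each gene up. Of the 8, *Rcan1*, *Acta1*, *Nppb* and *Ankrd1* were above that median. Single libraries set the sign of *Nppa*, *Myh6* and *Myh7*, since *Nppa* was at −0.04 without Cre positive ventricle 1 and *Myh7* at 0.07 without Cre negative ventricle 2 and 0.05 without Cre positive ventricle 1, and *Myh6* ranged from −0.04 to 0.09 over the alternatives. *Rcan1* (difference 0.76) and *Acta1* (difference 0.45) were higher in each Cre positive ventricle than in each Cre negative one (exact two-sided permutation p = 0.1 for either, the smallest possible and not adjusted over the 8 genes). This was 2 of 8 genes, where 29.4% of all genes tested were higher without overlap on the same scale, so the count was near the background. The differences of *Nppb*, *Ankrd1*, *Nppa* and *Npr3* were 0.38, 0.35, 0.31 and 0.19 (exact p between 0.3 and 0.6). Without Cre negative ventricle 1 those of *Nppb* and *Ankrd1* were 0.19 and 0.11, and without Cre negative ventricle 3 that of *Npr3* was 0.004. That of *Myh6* was 0.04 (exact p = 0.8).

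**Figure D5:**
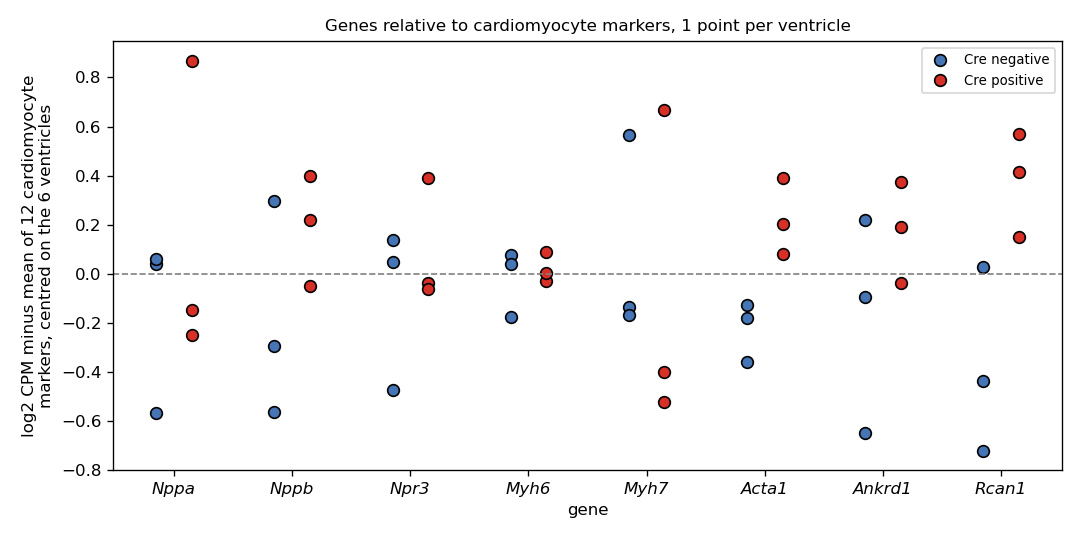
log2 CPM of each gene minus the mean log2 CPM of 12 cardiomyocyte markers in the same ventricle, centred on the 6 ventricles, with 1 point per ventricle (blue, Cre negative; red, Cre positive). The groups are apart for *Acta1* (difference 0.45) and *Rcan1* (difference 0.76) and overlap for the other 6 genes.

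Across the 6 ventricles the 8 genes did not vary as a unit. The highest correlation between 2 of them was that of *Nppb* with *Ankrd1* (Pearson r = 0.854 of log2 CPM, n = 6), the lowest that of *Myh6* with *Ankrd1* (r = −0.595, n = 6), and *Nppa* with *Nppb* gave r = 0.264 (n = 6). These values describe 6 libraries of both genotypes and were not adjusted for the marker levels of any cell type. Among 10803 genes with a mean of at least 100 counts, the genes most like *Rcan1* were *Ctbp2*, *Capn2* and *Col4a5* (r = 0.990 to 0.983, n = 6), and those most like *Ankrd1* were *Myl12a*, *Camk2n2* and *Prpsap1* (r = 0.999 to 0.975, n = 6). The genes most like *Nppa* were *Zswim4*, *Phc1* and *Clptm1*, those most like *Nppb* were *Nufip1*, *Psmd14* and *Nup62*, and those most like *Npr3* were *Ulk1*, *Lrrc57* and *Tusc2*. The genes most like *Myh6* were *Dcaf11*, *Cavin2* and *Bzw2*, those most like *Myh7* were *Pts*, *Surf1* and *Sugt1*, and those most like *Acta1* were *Dock5*, *Ube2o* and *Stat3* (r = 0.949 to 0.998 over these 18, n = 6). None of the 8 was among the 3 genes most like another of them. With 10803 genes compared, 3 places leave little room for any given gene. The lists hold the highest r over 6 libraries and carry no test, so no conclusion is drawn from them.

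Markers of other cell types overlapped between the groups in summed TPM, the fibroblast markers by the least. Fibroblast markers (7 genes) summed to 4501 to 7248 TPM without Cre and 7245 to 8323 TPM with it, endothelial markers (7 genes) to 530.01 to 649.9 and 635 to 728 TPM, and smooth muscle markers (5 genes) to 481 to 981 and 961 to 1098 TPM. Macrophage markers (6 genes) summed to 1636 to 2616 and 2086 to 2379 TPM, neutrophil markers (5 genes) to 48.4 to 413 and 66.5 to 156 TPM, and erythroid markers (3 genes) to 10603 to 19043 and 9856 to 17163 TPM. The overlap rested on 1 Cre negative ventricle in 4 of these lists, on ventricle 1 for the macrophage markers (1636 TPM, against 2481 and 2616 TPM in the others), on ventricle 2 for the fibroblast markers and on ventricle 3 for the endothelial and smooth muscle markers. For the fibroblast markers it rested as much on Cre positive ventricle 2, and for the endothelial and smooth muscle markers on Cre positive ventricle 1. In the 6 lists 0 genes passed in edgeR, DESeq2 or limma, and 1 of the 33, *Cnn1*, had an unadjusted p under 0.05 in edgeR, compared with 5.83% of all genes. Without Cre negative ventricle 1 the edgeR test again passed 0, with 5 of the 33 at an unadjusted p under 0.05 (3 macrophage, 1 neutrophil and 1 smooth muscle gene), compared with the same 6.59% of all genes. The macrophage median was then −0.18 with 5 of 6 below 0, from −0.001 with all ventricles, and the neutrophil median moved from −0.90 to 0.67. Of the atrial, skeletal muscle and endocardial markers, 3, 3 and 4 were tested, 0 passed in edgeR, DESeq2 or limma, and *Atp2a1* and *Cytl1* had an unadjusted p under 0.05 in edgeR, compared with 5.83% of all genes. *Atp2a1* was at 40.2 TPM in Cre positive ventricle 1 and at 0.23 to 0.6 TPM in all other ventricles. The part of these cell types in the levels of the 8 genes was not tested.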

How the data were processed

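The submitters' processing notes name Bowtie2 2.2.5, RSEM 1.2.12 and the build GRCm38.p6. The authors deposited, for each gene and ventricle, estimated counts without normalization (11.46% are not whole, as in estimates that divide shared reads), TPM values that sum to 1000000 per ventricle, and FPKM values scaled to length and depth. A second deposited table holds the authors' own DESeq2 comparison (log2 fold changes, p and q values) and was not used.

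The 8 genes and the gene lists were chosen with earlier results of these data known. Estimated counts were rounded, and edgeR 4.0.16 (R 4.3.3) was run with filterByExpr (minimum count 10, minimum total 15), TMM scaling and the quasi-likelihood test without covariates on the whole table, with Benjamini-Hochberg adjustment and a threshold of 0.05. The edgeR step was tested on simulated data. Log2 CPM used a prior count of 2. Ratios and marker-relative levels were compared by exact two-sided permutation. The p-values measure the spread between these ventricles, which the labels describe as taken from siblings. Named genes were the 8 members, the extremes of each list by log2 fold change, and the 3 genes most like each member. Other genes named, and the isoform ratios beside *Myh7* to *Myh6*, were chosen after their values were seen. Alternatives were DESeq2 1.42.0, limma 3.58.1 on log2 TPM with a pseudocount of 1 or 0.1, quantile normalization, other size factors and filters, and leaving out each ventricle. Depth was 13177888 to 14827579 estimated counts per ventricle, so that a gene with no count could have up to 3 counts, or 0.202 to 0.228 CPM (counting error only). Positions and promoters are RefSeq's, and all 8 genes were matched. Python 3.11.15 and matplotlib 3.10.9 were used for sequences and figures.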

Additional observations from a re-analysis of the deposited data

How the results depend on the processing

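None of the 8 genes passed the adjusted threshold under any of the 14 alternatives of test, scaling, filter, unit and samples, and the smallest adjusted p of a member was 0.508, for *Rcan1* without Cre negative ventricle 3. The log2 fold changes of *Rcan1* and *Myh7* kept their sign throughout, at 0.37 to 0.57 and −0.86 to −0.24. *Myh6* was below 0 in 13 of the 14 and 0 under quantile normalization, which thus gave no sign for it. Of 112 member fold changes under alternatives, 11 had the opposite sign, and the cause was not tested. *Nppa* was −0.0013 under quantile normalization, −0.40 without Cre positive ventricle 1 (range over ventricles −0.40 to 0.31) and −0.011 with the replicate number as a block. With 1 ventricle left out, *Nppb* ranged from −0.043 to 0.20 (−0.0038 without Cre positive ventricle 2), *Npr3* from −0.41 to 0.081, *Acta1* from −0.021 to 0.34 (−0.0021 without Cre negative ventricle 2), and *Ankrd1* from −0.051 to 0.13 (−0.014 and −0.022 without Cre positive ventricles 1 and 2). Across all genes, edgeR called 1 gene. DESeq2 called 5, limma on log2(TPM + 1) or log2(TPM + 0.1) called 2, and leaving out 1 ventricle gave 0 to 2. The ratio of *Myh7* to *Myh6* differed by −0.60 to 0.10 on the log2 scale when 1 ventricle was left out. Same-numbered ventricles deviated together with r of 0.354, 0.0726 and −0.0318, so the numbers were not taken to pair the samples. The fit with the replicate number as a block called 0 genes, 1217 with an unadjusted p under 0.05, and no member. With 3 ventricles per group, SDs ran from 5.49 percent (*Myh6* with Cre) to 47.7 percent of the mean TPM (*Nppa* with Cre). Small differences could thus have gone undetected, and the size needed was not determined.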
